A study of Mus musculus with 20 samples.

Results

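The ovaries of the high-fertility mouse line FL1 were compared with those of its unselected control line ctrl at estrus, the stage around ovulation. The comparison rests on 10 of the 20 libraries of the series, which are all libraries titled estrous, 5 of each line, and each library is from 1 female, with an age of 77 days in the labels. The other 10 libraries were made in diestrus and enter only where the stages are set side by side. FL1 (genotype FL1 in the labels) descends from an outbred stock and was selected over many generations for litter size and litter weight at birth, while ctrl (labelled WT) comes from the same stock and was kept without selection. Neither line is inbred and no treatment or transgene is given for the animals, so no single allele or agent defines the comparison. Estrus was read from vaginal smears, and fat tissue, oviduct and tunica albuginea were removed from the ovaries, so that ovulated cumulus-oocyte complexes are not part of the samples. RNA was read with a 3' mRNA-Seq kit, which primes at the poly(A) tail, so that reads pile up at transcript ends and long genes gain no reads from their length.

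In a cycling ovary, granulosa cells nourish the oocyte inside the follicle and turn androgen from the surrounding theca cells into estrogen, and FSH, inhibin and activin set how many follicles go on. The LH surge before estrus switches the follicle to ovulation, with prostaglandins, proteases and a swelling cumulus matrix, and the emptied follicle becomes a corpus luteum, which makes progesterone. At estrus an ovary therefore holds growing follicles, recently ruptured follicles and corpora lutea of earlier cycles side by side.

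The estrus libraries held between 6087813 and 10187715 counts, and no difference in depth between the lines was detected (7629000 ± 1620000 in FL1 and 7367000 ± 1650000 in ctrl, SD, n = 5 each, exact permutation test, p = 0.937). Mitochondrial genes took 4.53, 4.78, 4.23, 3.82 and 4.95% of the counts in ctrl 1 to 5 and 3.09, 3.16, 3.84, 4.04 and 4.09% in FL1 1 to 5, which is a lower share in FL1 (exact two-sided permutation test, p = 0.0397, smallest possible p 0.00794). The ctrl 5 library stood apart from all others on the first principal component, which held 30.5% of the variance, and its mean correlation with the other ctrl libraries was 0.9344, against 0.9531 to 0.9592 for ctrl 1 to 4. Compared with the mean of ctrl 1 to 4, its markers of follicular granulosa cells were lower by a mean log2 difference of -1.19 and those of oocytes by -0.885, while those of fat were higher by 1.86 and those of endothelium by 0.562. Values without this library are therefore given beside list results that move with it.

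**Figure D1:**
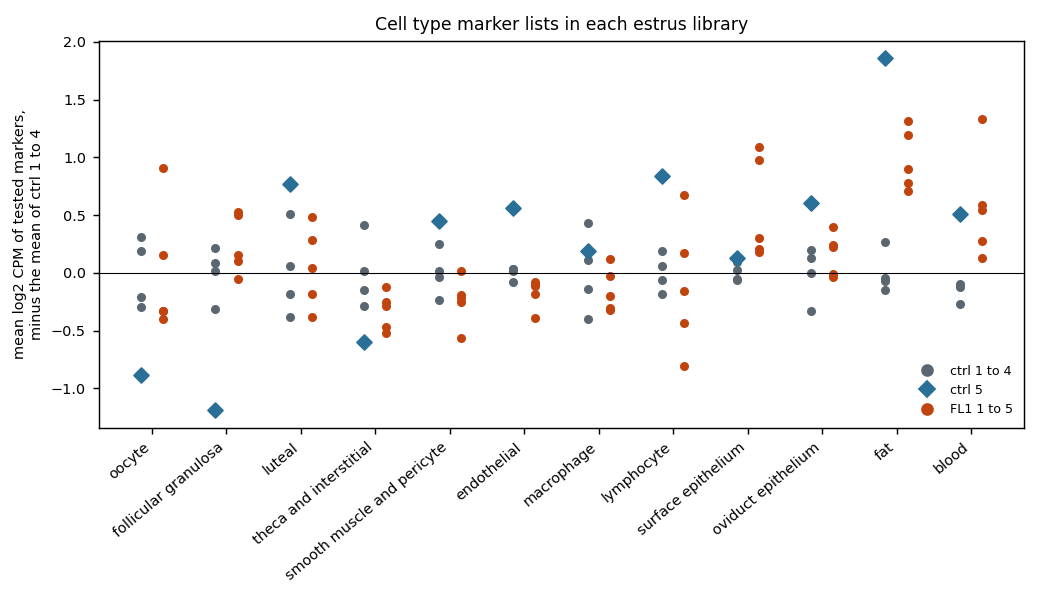
Mean log2 CPM (read counts scaled for library depth and composition) of the tested members of 12 marker lists in each estrus library, as the difference from the mean of ctrl 1 to 4. Each point is 1 library, grey for ctrl 1 to 4, a blue diamond for ctrl 5 and orange for FL1. The diamond lies lowest for oocyte and granulosa markers (-0.885 and -1.19) and highest for fat markers (1.86). The FL1 libraries lie above the mean of ctrl 1 to 4 for surface epithelium (0.181 to 1.09), fat (0.707 to 1.31) and blood (0.129 to 1.33).

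FL1 and ctrl differed in 311 of 13374 genes tested in estrus (edgeR quasi-likelihood test, Benjamini-Hochberg adjusted p at most 0.05), which is 2.33% of the tested genes. Of these, 143 rose in FL1 (1.07% of the tested genes) and 168 fell (1.26%). The median size of the 311 differences was 1.09 on the log2 scale, where 84 genes rose and 83 fell more than 2-fold and 43 lay under 1.5-fold. The ranges of FL1 and ctrl did not overlap in 264 of the 311 genes, and in 649 (4.85%) when all tested genes were counted. Without ctrl 5, 418 of 13642 genes differed (3.06%), 210 of them higher and 208 lower in FL1. Of the 311 genes, 287 were among these with the same direction, 24 were called only with ctrl 5, and 131 genes were called only without it. Leaving out each library in turn kept 139 of the 311 genes in all 10 fits. The libraries that end a call when left out are named below for each gene.

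The 311 genes were read through 36 lists of ovarian cell types and pathways with 653 genes, of which 578 were tested. Log2FC is FL1 minus ctrl throughout, given with its SE, and adjusted p are those of the edgeR test. A total of 31 of these 578 genes differed between the lines (5.36%, against the 2.33% of all tested genes), and 17 of the 36 lists had no member that passed the test. The lists were chosen with earlier results of these data known, so the higher share cannot be read as a result about them. In most lists the medians lay near 0, as did that of all tested genes (-0.00523 on the log2 scale, with 50.9% of the genes below 0).

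**Figure D2:**
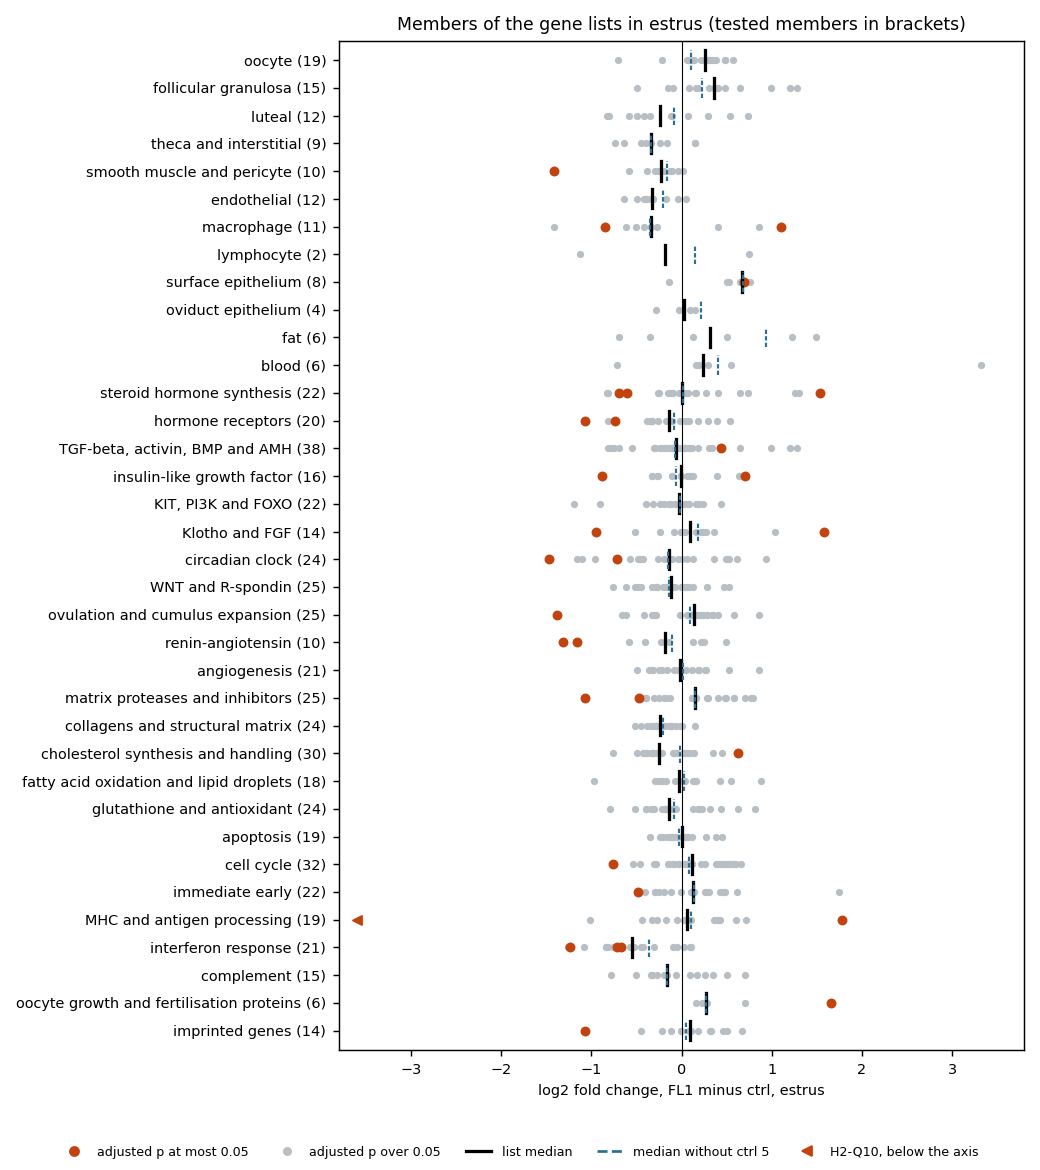
Log2 fold change (FL1 minus ctrl) in estrus of each tested member of the 36 lists, with the number of tested members in brackets. Orange points passed the test (adjusted p at most 0.05), grey points did not, the black bar is the list median and the dashed blue bar the median without ctrl 5. H2-Q10 lies below the axis at -6.67. The medians furthest from 0 are those of the interferon response (-0.546) and the surface epithelium (0.666), and that of fat moves from 0.315 to 0.94 without ctrl 5.

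Oocyte, granulosa, theca and luteal genes were read in every library. Not every defining marker was, since Insl3 of theca cells and Amh of granulosa cells had only 2 and 11 counts over all estrus libraries. These 2 genes were not tested. None of the 19 tested oocyte genes (zona proteins, Gdf9, Bmp15 and maternal factors) passed the test, and their median log2FC was 0.258 (17 positive), or 0.0982 without ctrl 5 (15 of 20 positive). Their summed level ran from 283 to 644 CPM in ctrl and from 409 to 1008 CPM in FL1. Zp2, a zona pellucida protein, had the smallest p of them with 33.5, 39.7, 31.6, 26.4 and 22.4 CPM in ctrl and 75.6, 42, 30.3, 36 and 31.4 CPM in FL1 (log2FC 0.48 ± 0.24, adjusted p = 0.351). FL1 1 was the highest library, and the lines overlapped. In a bulk sample, fewer cells of a type and less RNA per cell cannot be told apart.

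No granulosa marker out of 15 tested passed the test with all libraries, although 12 had positive values (median log2FC 0.358, or 0.22 without ctrl 5). Their summed level was 2533 CPM in ctrl 5, 4258 to 5911 CPM in ctrl 1 to 4 and 4766 to 7669 CPM in FL1. Inhba encodes the activin subunit that pairs into activin A or, with the inhibin alpha subunit, into inhibin A. It was read at 160, 103, 283, 272 and 76.1 CPM in ctrl 1 to 5 and 387, 567, 306, 466 and 336 CPM in FL1 1 to 5. The range of FL1 lay above that of ctrl, but the gene missed the threshold (log2FC 1.198 ± 0.31, adjusted p = 0.0627). Fst encodes follistatin, which binds and blocks activin. It had 155, 134, 158, 208 and 34.3 CPM in ctrl and 529, 370, 208, 307 and 263.4 CPM in FL1 (log2FC 1.28 ± 0.35, adjusted p = 0.0787), where FL1 3 and ctrl 4 were level. Both genes were lowest in ctrl 5, and without that library both passed the test, Inhba at a log2FC of 1.01 (adjusted p = 0.0499) and Fst at 1.04 (adjusted p = 0.0205). Inhbb, the other activin subunit (0.99 ± 0.42), and Cyp19a1, the aromatase that makes estrogen (0.65 ± 0.41), did not pass. Inha, the inhibin alpha subunit and the granulosa marker with the most counts, showed no call (log2FC 0.18 ± 0.24, adjusted p = 0.777).

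The 12 luteal markers did not pass either (median -0.235, or -0.0803 without ctrl 5). Akr1c18, the enzyme that inactivates progesterone, varied widely within both lines, at 7269, 8961, 1887, 3739 and 12530 CPM in ctrl and 7083, 8870, 15190, 9610 and 16850 CPM in FL1 (log2FC 0.73 ± 0.41, adjusted p = 0.41). Without ctrl 5 a single luteal marker, Cldn1, a tight junction protein, fell (log2FC -0.96, adjusted p = 0.0181, against -0.81 and 0.112 with all libraries). Among 9 theca and interstitial markers, 7 had negative values, including the hedgehog targets Gli1 (-0.46), Ptch1 (-0.39) and Hhip (-0.64), and none passed. Aldh1a1, which makes retinoic acid, was the closest (log2FC -0.74 ± 0.23, adjusted p = 0.12), and it passed without ctrl 5 (log2FC -0.87, adjusted p = 0.0226).

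Vessel wall genes showed the clearest single marker. Rgs5, a regulator of G protein signalling that marks pericytes, was read at 82.6, 106, 122, 119 and 198 CPM in ctrl 1 to 5 and 35.1, 42.6, 43.6, 57 and 58.7 CPM in FL1 1 to 5. It fell in FL1 without overlap (log2FC -1.41 ± 0.21, adjusted p = 0.0023), and it passed in all 10 fits that left out 1 library. The other 9 smooth muscle and pericyte markers did not pass (among them Acta2, smooth muscle actin, 0.01 ± 0.12, and Notch3, -0.39 ± 0.29). Of the 12 endothelial markers, 11 had negative values with a median of -0.333 (-0.208 and 9 negative without ctrl 5) and none passed. Their mean log2 CPM was 5.007 to 5.65 in ctrl and 4.7 to 5.005 in FL1, lower in every FL1 library, with ctrl 4 and FL1 4 nearly level. Their summed levels overlapped slightly, at 512 to 770 CPM in ctrl and 419 to 514 CPM in FL1. Cdh5, VE-cadherin, had the smallest p, with 51 to 70.4 CPM in ctrl and 38 to 47.5 CPM in FL1 (log2FC -0.41 ± 0.11, adjusted p = 0.0729).

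Macrophage markers split. Lyz2, lysozyme of macrophages and granulocytes, rose from 122, 123, 162, 133 and 91.1 CPM in ctrl to 235, 288, 162, 400 and 276 CPM in FL1 (log2FC 1.10 ± 0.20, adjusted p = 0.0107), with the libraries ctrl 3 and FL1 3 side by side and all other FL1 libraries above all ctrl libraries. In contrast, Cx3cr1, the fractalkine receptor of resident macrophages, fell from 38.9, 24, 49.6, 40 and 52.4 to 18.4, 19.3, 27.1, 23.7 and 26 CPM (log2FC -0.85 ± 0.20, adjusted p = 0.0386), with ctrl 2 inside the range of FL1. Its call was lost when ctrl 1, 3 or 4 or FL1 1, 2, 4 or 5 was left out (largest adjusted p 0.105). The other 9 tested markers did not pass, and 8 of all 11 had negative values, for example Csf1r (-0.61) and Adgre1 (-0.42).

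Ovarian surface epithelium was represented by 8 tested markers, of which 7 had positive values of similar size, with a median log2FC of 0.666. The keratins Krt7, Krt8, Krt18 and Krt19 lay at 0.75, 0.71, 0.65 and 0.68 without passing. Upk3b, a uroplakin of the mesothelium and ovarian surface, did pass. It was read at 44.4, 42, 48.7, 34.7 and 44.3 CPM in ctrl and 89.5, 89.5, 55.3, 56 and 56 CPM in FL1 (log2FC 0.69 ± 0.17, adjusted p = 0.0468), higher in every FL1 library. The difference was largest in FL1 1 and 2, and the call was lost when ctrl 1, 2, 3 or 4 or FL1 1, 2, 4 or 5 was left out (largest adjusted p 0.13). The summed level of the list was 109 to 124 CPM in ctrl and 135 to 238 CPM in FL1, so that every FL1 library lay higher. The tunica albuginea, which the surface epithelium covers, had been removed in the dissection, and how much of this layer was left on each ovary was not tested.

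The dissection should also remove oviduct and fat. Of 10 oviduct markers 4 were tested and none passed, and the defining Ovgp1 and Foxj1 reached at most 1.82 and 2.35 CPM in any library. Fat markers summed to 596 CPM in ctrl 5, 190 to 283 CPM in ctrl 1 to 4 and 202 to 325 CPM in FL1. On the mean log2 scale every FL1 library lay above the mean of ctrl 1 to 4 for this list, by 0.707 to 1.31. Adipoq, which defines adipocytes, ran from 0 to 12.8 CPM in ctrl and from 0.74 to 5.59 CPM in FL1, and Lep was 0 in every FL1 library and at most 0.861 CPM in ctrl. Fabp4, a fatty acid carrier of fat cells, capillaries and macrophages, had 6.97, 5.63, 5.23, 10.5 and 32.9 CPM in ctrl and 59.1, 41.1, 18.4, 22.6 and 30.2 CPM in FL1 (log2FC 1.49 ± 0.48, adjusted p = 0.136), and without ctrl 5 it was called (log2FC 2.25, adjusted p = 0.00164). In all, 3 of the 6 tested fat markers rose without ctrl 5 and none with it, while 3.06% of all tested genes were called without ctrl 5. The others were Car3, a carbonic anhydrase (1.75, adjusted p = 0.00875), and Cfd, adipsin (2.66, adjusted p = 0.0313), and the list median moved from 0.315 to 0.94. Plin4, the fat marker with the highest level (-0.70 ± 0.44), and Lipe (-0.35) had negative values with all libraries and did not pass. Ctrl 5 was set apart partly by its high fat markers, so leaving it out raises the fat differences by itself. Red cell and platelet genes did not pass. The 5 tested red cell genes all had positive values (median log2FC 0.29), and the platelet gene Pf4 had -0.71. Hba-a2 came closest, at 0.91 to 4.63 CPM in ctrl and 2.21 to 85.4 CPM in FL1 (log2FC 3.32 ± 0.85, adjusted p = 0.0617). On the mean log2 scale every FL1 library lay above the mean of ctrl 1 to 4 for the blood list, by 0.129 to 1.33. Ctrl 2 and ctrl 5 lay within the range of FL1. Of the lymphocyte genes only Trac and Ighm had enough counts to be tested. The part of these tissues in other results was not tested.

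Of the genes of steroid synthesis, 3 of 22 tested members passed the test, 1 up and 2 down (median log2FC 0.00516). Hsd17b2 (chr8:117701904-117759027, GRCm38) encodes the 17-beta-hydroxysteroid dehydrogenase that oxidises estradiol to estrone and testosterone to androstenedione. It rose from 6.57, 5.79, 4.44, 5.19 and 1.9 CPM in ctrl 1 to 5 to 21.6, 13.6, 11.1, 12 and 11.7 CPM in FL1 1 to 5 (log2FC 1.53 ± 0.29, adjusted p = 0.0134). The lines did not overlap, FL1 1 was the highest library, and the gene passed in all 10 fits that left out 1 library. Por (chr5:135670033-135735326) encodes the reductase that passes electrons to the microsomal P450 enzymes, CYP17A1 and aromatase among them. It fell from 162, 165, 180, 183 and 230 CPM to 83.4, 97.6, 129, 125 and 135 CPM (log2FC -0.70 ± 0.15, adjusted p = 0.0228), again without overlap, and was lost only when FL1 2 was left out (adjusted p 0.0694). Srd5a1, a 5-alpha-reductase, fell from 49.1, 31.6, 41, 41.9 and 45.6 CPM to 31.8, 27.1, 24.9, 29.8 and 24.6 CPM (log2FC -0.61 ± 0.14, adjusted p = 0.0337), with ctrl 2 just below FL1 1. This call was lost when ctrl 1, 3 or 4 or FL1 2, 3, 4 or 5 was left out (largest adjusted p 0.0882).

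The main enzymes of progesterone and androgen synthesis did not pass. Star, which brings cholesterol into mitochondria, lay at -0.83 ± 0.40, Cyp11a1, which cleaves its side chain, at 0.07 ± 0.27, Hsd3b1 at -0.12 ± 0.14 and Cyp17a1 at 0.15 ± 0.49. Other enzymes that inactivate steroids gave Hsd11b2, the cortisol-inactivating dehydrogenase, at log2FC 1.30 ± 0.33, adjusted p = 0.0545, and without ctrl 5 it passed (1.10, adjusted p = 0.0454). Nr0b1, a repressor of steroid synthesis, had a log2FC of 1.25 ± 0.43 and did not pass.

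Among 20 tested hormone receptors, Esr1 and Lepr fell in FL1 and none rose (median -0.143). Esr1 (chr10:4611593-5005614), estrogen receptor alpha, which in the ovary is found in theca, stroma and surface cells more than in granulosa cells, was read at 75.8, 68.7, 91.6, 83.2 and 50.6 CPM in ctrl and 56.6, 42.5, 47.3, 34.5 and 41.5 CPM in FL1 (log2FC -0.74 ± 0.16, adjusted p = 0.0263). Only ctrl 5, at the low end of ctrl, lay within the range of FL1, and without it the difference was -0.84 (adjusted p = 0.00303). The call was lost when ctrl 1, 3 or 4 or FL1 2, 4 or 5 was left out (largest adjusted p 0.0767). Esr2, the estrogen receptor of granulosa cells, showed 0.08 ± 0.18, and Pgr, the progesterone receptor, showed 0.18 ± 0.36. Lepr (chr4:101717404-101815352), the leptin receptor, fell from 10.1, 18.7, 24.9, 12.9 and 15.8 CPM to 6.76, 7.47, 8.08, 9.92 and 7.28 CPM without overlap (log2FC -1.07 ± 0.24, adjusted p = 0.0309). It was lost when ctrl 2 or 3 or FL1 1, 2, 3 or 5 was left out (largest adjusted p 0.081). Of the gonadotropin receptors, Fshr was at 0.39 ± 0.26 and Lhcgr at 0.53 ± 0.18, and neither passed.

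In the TGF-beta family 1 of 38 tested genes passed. Smad4, the common partner of the receptor SMADs in transcription complexes, rose from 120, 131, 146, 121 and 109 CPM to 184, 181, 153, 153 and 184 CPM without overlap (log2FC 0.44 ± 0.10, adjusted p = 0.0412). Its call was lost when ctrl 1, 2 or 4 or FL1 1, 2, 4 or 5 was left out (largest adjusted p 0.112). The other 7 SMAD genes ranged from -0.55 (Smad6) to 0.02 (Smad5), the receptors from -0.31 (Acvr2a) to 0.64 (Bmpr1b), and none of these passed. The BMP antagonist Grem1 lay at -0.75 and did not pass.

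Binding proteins of insulin-like growth factors moved in opposite directions although the genes are neighbours on chromosome 1. Igfbp2 (chr1:72824503-72852474) fell from 83.1, 78.1, 105, 75 and 122 CPM in ctrl to 43.7, 54.6, 48.1, 60 and 46.2 CPM in FL1 (log2FC -0.89 ± 0.15, adjusted p = 0.00599). It did not overlap and held in all 10 fits. Igfbp5 (chr1:72857932-72874884), on the other strand, rose from 244, 160, 249, 209 and 141 CPM to 351, 359, 356, 285 and 286 CPM (log2FC 0.70 ± 0.15, adjusted p = 0.0292), also without overlap. Its call was lost when ctrl 2 or 4 or FL1 1, 2 or 3 was left out (largest adjusted p 0.0844). The remaining 14 of 16 tested genes of the pathway did not pass, including Igf1 (0.10 ± 0.14), its receptor Igf1r (-0.33 ± 0.12), Igfbp4, the binding protein with the most counts (-0.33 ± 0.16), and Pappa, the protease that cuts it (0.63 ± 0.31). IGFBP5 and IGFBP2 both hold the growth factors away from their receptor, and IGFBP5 also binds the matrix.

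Kl and Fgf2 were the 2 called genes of 14 tested for Klotho and FGF. Kl (chr5:150952607-150993817) encodes Klotho, the co-receptor of the endocrine factor FGF23, which is best known from kidney. It rose from 4.02, 1.82, 4.7, 4.62 and 2.76 CPM in ctrl to 10.2, 5.68, 16.6, 8.14 and 13.8 CPM in FL1 (log2FC 1.58 ± 0.33, adjusted p = 0.0219), with every FL1 library above every ctrl library at a low level, and was lost when FL1 3 or 5 was left out (largest adjusted p 0.0626). Fgf2, a heparin-bound growth factor for vessels and granulosa cells, fell from 41.8, 53.3, 45.6, 57.5 and 40.1 CPM to 17.1, 39.6, 17.8, 28.7 and 21.6 CPM (log2FC -0.94 ± 0.21, adjusted p = 0.0318), with FL1 2 just below ctrl 5. This was lost when ctrl 2, 3 or 4 or FL1 1, 3, 4 or 5 was left out (largest adjusted p 0.0874). The 4 FGF receptors ranged from -0.09 (Fgfr1) to 0.27 (Fgfr2) and did not pass. No gene of the KIT, PI3K and FOXO list (22 tested) passed, with Pik3r1, the regulatory subunit, closest (log2FC 0.43 ± 0.15, adjusted p = 0.161). Without ctrl 5 the receptor gene Kit fell (log2FC -1.13, adjusted p = 0.0417, against -0.91 and 0.229 with all libraries). Likewise none of the 25 WNT and R-spondin genes passed, with Sfrp1, a secreted WNT inhibitor, closest (log2FC -0.76 ± 0.20, adjusted p = 0.0709).

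The circadian clock runs in ovarian cells as a loop in which CLOCK and BMAL1 drive the Per, Cry, Nr1d and PAR-bZIP genes through E-box elements. Per2 and Tef fell in FL1 and no clock gene rose, out of 24 tested (median -0.138). Per2 (chr1:91415982-91459324), a repressor of the loop, was read at 11, 11.6, 7.58, 8.59 and 11.2 CPM in ctrl and 1.91, 2.09, 6.4, 2.81 and 4.39 CPM in FL1 (log2FC -1.48 ± 0.32, adjusted p = 0.0263). The lines did not overlap, FL1 3 came closest to ctrl, and the call was lost when ctrl 1 or 2 or FL1 1, 2, 4 or 5 was left out (largest adjusted p 0.0756). Tef, an output factor that binds D-box elements, fell from 121, 73.3, 95.6, 98.5 and 80.3 CPM to 61.3, 49.6, 68.1, 50.6 and 56.5 CPM (log2FC -0.72 ± 0.14, adjusted p = 0.0146) without overlap, and held in all 10 fits. Related genes without a call were Per1 (-0.57 ± 0.21), Per3 (-1.17 ± 0.41), Dbp (-0.96 ± 0.37) and Hlf (-1.11 ± 0.29) on the negative side and Arntl, which encodes BMAL1 (0.52 ± 0.24), and Npas2 (0.93 ± 0.35) on the positive side. Without ctrl 5, Hlf also fell (-1.23, adjusted p = 0.028) and Nfil3, a repressor at D-box elements, rose (0.77, adjusted p = 0.0384). The ovaries were collected at 1 time of day according to the methods, so no phase could be measured.

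Tef has 2 promoters in RefSeq (GRCm38.p6, plus strand), both shown because each holds the E-box letters CACGTG, which are given in capitals. The first lies at chr15:81802423-81802722 with the motif beginning at position -127 from the RefSeq start, and the second at chr15:81811164-81811463 with the motif at -138. Each stretch runs past its start. In GENCODE M21, used for the counts, the gene begins at chr15:81802421, so both stretches lie inside the gene as annotated there.
Tef promoter 1: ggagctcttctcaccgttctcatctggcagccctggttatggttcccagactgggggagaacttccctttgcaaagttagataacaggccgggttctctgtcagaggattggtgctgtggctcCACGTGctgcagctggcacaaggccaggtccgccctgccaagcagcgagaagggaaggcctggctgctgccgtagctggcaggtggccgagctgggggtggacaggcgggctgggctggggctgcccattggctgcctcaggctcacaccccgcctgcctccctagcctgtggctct
Tef promoter 2: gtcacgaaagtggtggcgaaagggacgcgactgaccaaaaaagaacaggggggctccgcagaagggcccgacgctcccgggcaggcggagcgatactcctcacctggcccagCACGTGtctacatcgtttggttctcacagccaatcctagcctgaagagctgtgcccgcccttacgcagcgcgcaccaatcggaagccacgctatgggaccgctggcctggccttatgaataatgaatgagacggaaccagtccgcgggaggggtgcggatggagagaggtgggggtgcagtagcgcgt
The table held 27 promoters of 19 clock genes, of which 6 had CACGTG on either strand (in Bhlhe41, Ciart, Cry1, Per1 and Tef), as had 7.15% of all 32851 promoters. The D-box TTATGTAA was found in 1 of the 27, of Per3, and in 0.938% of all promoters, and the cAMP response element TGACGTCA in 1, of Hlf, and in 1.79%. The shorter TGACG, which lies inside it, stood in 10 of the 27 and in 20.8% of all promoters, and GGTCA, the repeated part of the estrogen response element, in 12 of the 27 and in 40.5%. Over the 294 promoters of the called genes, 7.48% held CACGTG, 0.68% TTATGTAA, 2.72% TGACGTCA, 23.1% TGACG and 43.5% GGTCA. Per2 was not among the promoters used here.

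**Figure D3:**
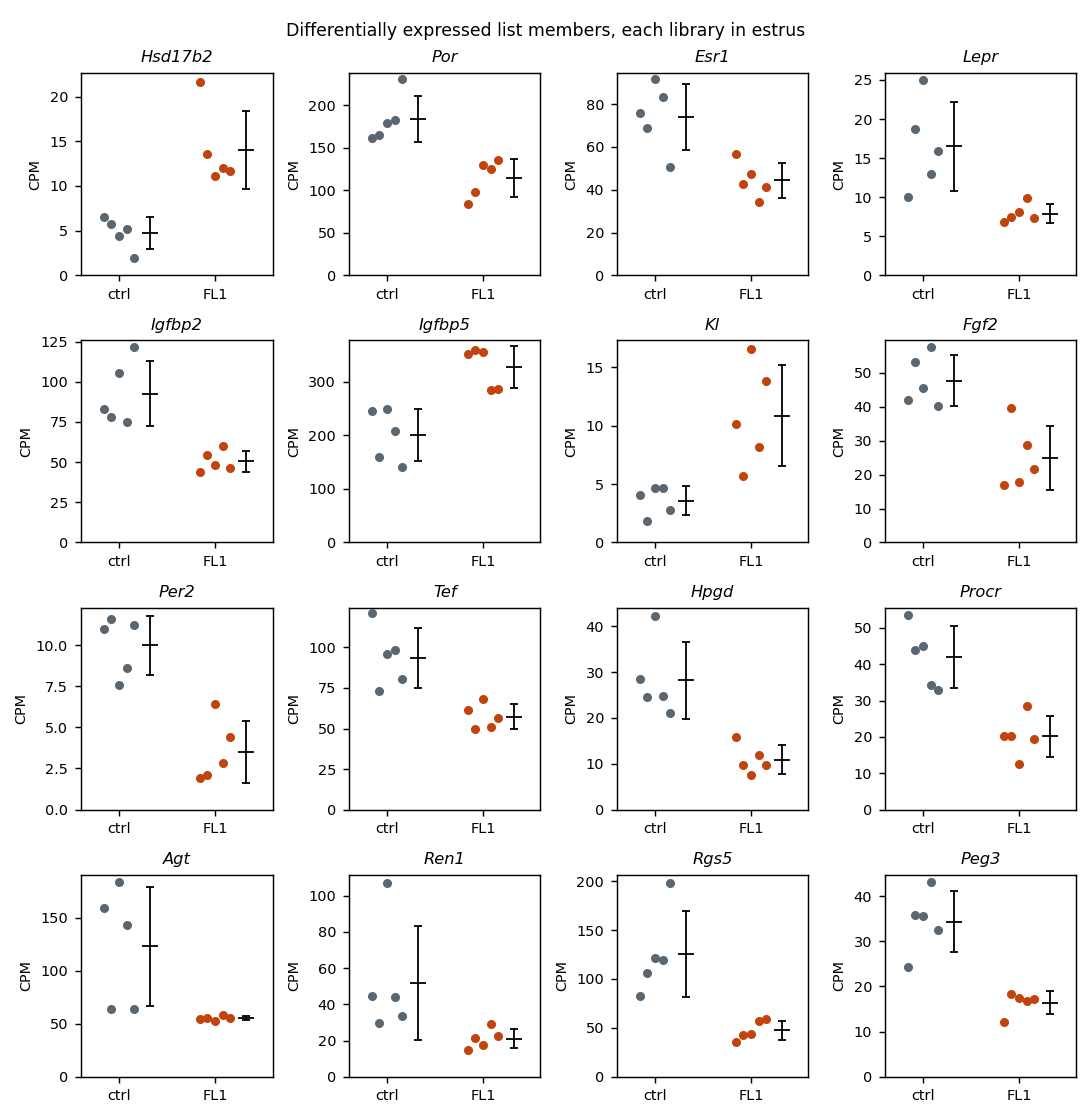
CPM of 16 called list members in each estrus library, grey for ctrl and orange for FL1, with the mean and SD (n = 5) beside the points. Each panel has its own axis from 0. Hsd17b2, Igfbp5 and Kl are higher and Por, Igfbp2, Fgf2, Per2, Tef, Hpgd, Procr, Agt, Ren1, Rgs5, Lepr and Peg3 lower in every FL1 library, while the low ctrl 5 library of Esr1 lies within the range of FL1.

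Of the ovulation genes, 1 of 25 tested members was called (median log2FC 0.133). Hpgd (chr8:56294585-56321043) encodes the dehydrogenase that begins the breakdown of prostaglandins. It fell from 28.4, 24.5, 42.3, 24.7 and 21 CPM in ctrl to 15.7, 9.72, 7.45, 12 and 9.75 CPM in FL1 (log2FC -1.38 ± 0.23, adjusted p = 0.00488), did not overlap and held in all 10 fits. The same gene was also called in diestrus (-1.38 ± 0.18, adjusted p = 0.000476), from other mice. Prostaglandin genes on the side of synthesis and response, Ptgs1 (-0.66 ± 0.28), Ptges (0.13 ± 0.14), Ptger4 (-0.61 ± 0.23) and Ptgfr (-0.42 ± 0.30), did not pass, and Ptgs2 had too few counts to be tested. The cumulus matrix genes that were tested, Ptx3, Tnfaip6, Vcan, Adamts1 and Adamts4, lay between 0.22 and 0.58 without a call.

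Both the substrate and the first enzyme of the renin-angiotensin system fell, the 2 called genes out of 10 tested. Agt (chr8:124556534-124569706), angiotensinogen, was read at 159, 63.9, 184, 143 and 64.1 CPM in ctrl and 54.4, 55.2, 53, 57.9 and 55.8 CPM in FL1 (log2FC -1.16 ± 0.25, adjusted p = 0.0291). Ctrl 2 and 5 lay just above FL1 and the other ctrl libraries far above it, while the FL1 libraries were close to each other. Its call was lost when ctrl 1, 3 or 4 or FL1 1, 2, 3, 4 or 5 was left out (largest adjusted p 0.0777). Ren1 (chr1:133350510-133360325), renin, was read at 44.4, 29.5, 107, 43.9 and 33.6 CPM in ctrl and 15, 21.2, 17.3, 28.9 and 22.4 CPM in FL1 (log2FC -1.31 ± 0.31, adjusted p = 0.0412), with ctrl 3 far above the other ctrl libraries and FL1 4 just below ctrl 2. It was lost when ctrl 1 or 4 or FL1 1, 2, 3, 4 or 5 was left out (largest adjusted p 0.107). The converting enzyme Ace (-0.41 ± 0.25), the receptors Agtr1a (-0.59 ± 0.36) and Agtr2 (0.25 ± 0.46) and the prorenin receptor Atp6ap2 (0.12 ± 0.11) did not pass.

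Of the genes that remodel the ovarian matrix, Procr and Timp3 fell and none of 25 tested rose. Procr (chr2:155751117-155755471), the endothelial protein C receptor, was read at 53.5, 43.9, 45.1, 34.3 and 32.9 CPM in ctrl and 20.3, 20.2, 12.5, 28.6 and 19.3 CPM in FL1 (log2FC -1.07 ± 0.20, adjusted p = 0.0114), without overlap and in all 10 fits. Timp3, a matrix-bound inhibitor of metalloproteinases, fell from 429, 443, 545, 496 and 590 CPM to 314, 362, 395, 368 and 380 CPM (log2FC -0.47 ± 0.11, adjusted p = 0.0453), also without overlap, and was lost when ctrl 2, 3 or 4 or FL1 1, 2, 3, 4 or 5 was left out (largest adjusted p 0.111). The proteases themselves did not pass, and ranged from -0.41 (Mmp2) to 0.80 (Adamts5). Of the collagens and other structural proteins, 22 of 24 tested members had values below 0 (median -0.242), and none passed. Without ctrl 5, Lamc1, a laminin chain, fell (log2FC -0.50, adjusted p = 0.0174). Col15a1, a basement membrane collagen, had the smallest p (log2FC -0.51 ± 0.16, adjusted p = 0.133). No angiogenesis gene of 21 passed.

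Metabolic and housekeeping lists held few calls. Sc5d, the desaturase near the end of cholesterol synthesis, rose from 121, 142, 122, 133 and 183 CPM in ctrl to 243, 169, 234, 202 and 239 CPM in FL1 (log2FC 0.62 ± 0.14, adjusted p = 0.0315), while 22 of the 30 tested genes of cholesterol synthesis and handling had negative values (median -0.249). Its call was lost when ctrl 1, 2, 3 or 4 or FL1 1, 3, 4 or 5 was left out (largest adjusted p 0.0859), and ctrl 5 lay above FL1 2. That list depended on ctrl 5, since without it the median was -0.0197, 17 genes were negative, and Nceh1, a cholesteryl ester hydrolase, rose as well (log2FC 0.76, adjusted p = 0.0173). None of 18 genes of fatty acid oxidation and lipid droplets, 24 of glutathione and antioxidant defence and 19 of apoptosis passed with all libraries, and without ctrl 5 the lipid droplet gene Plin2 rose (log2FC 0.64, adjusted p = 0.0478). In the cell cycle list 1 of 32 genes passed, Pcna, the sliding clamp of DNA polymerase, which fell from 41.6, 40.9, 38.8, 44.2 and 46.2 CPM to 29.9, 27.6, 18.2, 27.4 and 22.8 CPM (log2FC -0.76 ± 0.14, adjusted p = 0.0109) without overlap and in all 10 fits. In the list as a whole, 21 of the 32 genes had positive values (median 0.116), for example Cdk1 (0.51), Ccnb1 (0.53) and Aurkb (0.55). Ctrl 5 was the lowest library of this list, and without it 18 of the 32 were positive (median 0.0806). Of the 11 replication genes, which include Pcna, 6 were positive with all libraries (median 0.0272). Without ctrl 5, 4 of these 11 were positive and 7 negative (median -0.0998). Klf9, a progesterone- and thyroid-responsive repressor, fell from a mean of 304 ± 28.6 CPM to 219 ± 27.1 CPM (SD, n = 5 each, log2FC -0.48 ± 0.11, adjusted p = 0.0339) without overlap, 1 of 22 immediate early genes tested, and was lost when ctrl 2, 3 or 4 or FL1 1, 2, 4 or 5 was left out (largest adjusted p 0.0921). Atf3, a stress-induced factor of the same list, rose without ctrl 5 (log2FC 2.27, adjusted p = 0.012, against 1.75 and 0.0681 with all libraries).

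Interferon-induced genes lay lower in FL1 as a list, with 18 of 21 tested members below 0 and a median of -0.546 (18 of 22 and -0.366 without ctrl 5). They are the antiviral effectors and sensors that type I interferon switches on. Of them 3 fell in FL1 and none rose. Ifi44 was read at 16, 13.7, 20.9, 15.6 and 29.3 CPM in ctrl and 6.76, 7.92, 6.29, 13.2 and 6.64 CPM in FL1 (log2FC -1.24 ± 0.26, adjusted p = 0.0241). Ddx58, which encodes the RNA sensor RIG-I, fell from 34.1, 37.2, 42.7, 32.9 and 49.6 CPM to 18.2, 24.7, 25.5, 27.8 and 23.9 CPM (log2FC -0.72 ± 0.15, adjusted p = 0.0243). Oasl2 fell from 28.7, 25.6, 34.4, 29.6 and 42.5 CPM to 21.3, 19, 24.9, 16.3 and 19.7 CPM (log2FC -0.67 ± 0.17, adjusted p = 0.0485). In all 3 genes every FL1 library lay below every ctrl library, and ctrl 5 was the highest ctrl library. Their calls were lost when FL1 1, 2, 3 or 5 was left out for Ifi44, ctrl 3 or FL1 1, 2 or 5 for Ddx58 and ctrl 1, 3, 4 or 5 or FL1 1, 2, 4 or 5 for Oasl2, with largest adjusted p of 0.0683, 0.0624 and 0.127 (Oasl2 without ctrl 5, adjusted p = 0.0612). The summed level of the list was 1367 CPM in ctrl 5, 789 to 929 CPM in ctrl 1 to 4 and 593 to 844 CPM in FL1. Isg15 (-1.08 ± 0.34), Usp18 (-1.26 ± 0.56) and Ifit1 (-0.84 ± 0.29) did not pass.

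The class I genes of the major histocompatibility complex gave the widest spread of any list. H2-D1 (chr17:35262730-35267499) rose from 68.3, 148, 103, 41.9 and 68 CPM in ctrl to 260, 269, 278, 338 and 333 CPM in FL1 (log2FC 1.78 ± 0.25, adjusted p = 0.00156). Part of the transcript end of this gene is also found in 16 other genes or pseudogenes. With the counts of all of them added the log2FC was 0.80 ± 0.14 (adjusted p = 0.00762). H2-Q10, a secreted class I protein, was read at 7.78, 10.8, 8.23, 14.3 and 46.3 CPM in ctrl and 0, 0.598, 0, 0.296 and 0 CPM in FL1, a log2FC of -6.67 ± 0.81 (adjusted p = 0.000394) whose size depends on the model because FL1 held almost no counts. B2m, their common light chain, lay at 0.10 ± 0.12, and none of the other 17 tested genes of antigen processing passed with all libraries, while H2-K1 rose without ctrl 5 (log2FC 0.61, adjusted p = 0.00105). No complement gene of 15 passed, but 2 did so without ctrl 5, namely C3, the central component (log2FC 0.87, adjusted p = 0.0109, against 0.70 and 0.0767 with all libraries), and Cfd, complement factor D, which is also a fat marker.

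Fetub, of 6 tested egg and fertilisation proteins, and Peg3, of 14 tested imprinted genes, were the calls in the remaining lists. Fetub encodes fetuin-B, which keeps the zona pellucida from hardening too early. It rose from 2.68, 1.32, 2.61, 3.4 and 1.55 CPM in ctrl to 9.41, 8.37, 4.3, 4.74 and 10.6 CPM in FL1 (log2FC 1.65 ± 0.35, adjusted p = 0.0234), with all FL1 libraries above ctrl at low counts, and was lost when ctrl 2 or FL1 1, 2 or 5 was left out (largest adjusted p 0.0687). In diestrus it was called as well (1.33 ± 0.19, adjusted p = 0.00112). Peg3 (chr7:6703892-6730431), an imprinted zinc finger gene expressed from the paternal allele, fell from 24.4, 35.9, 35.7, 43.2 and 32.5 CPM to 12.1, 18.4, 17.5, 16.9 and 17.1 CPM (log2FC -1.07 ± 0.17, adjusted p = 0.00275) without overlap and in all 10 fits. The other 13 tested imprinted genes ranged from -0.45 (H19) to 0.67 (Nnat) and did not pass.

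Outside the lists, the largest changes were gains or near losses of single genes. Of the 311 genes, 182 were protein coding, at least at 10 CPM on average and without overlap between the lines, and the 12 largest changes of these in each direction follow. Zpld1 (chr16:55225175-55297986), a zona pellucida-like domain protein, was at 2.68, 0, 1.04, 0.472 and 1.03 CPM in ctrl and 153, 136, 59.8, 116 and 93.2 CPM in FL1 (log2FC 6.71 ± 0.43, adjusted p = 6.71e-07). Gpnmb, a glycoprotein of lysosome-rich macrophages, rose from 7.24 to 14 CPM to 24.8 to 142 CPM (log2FC 2.66 ± 0.39, adjusted p = 0.00179), and Ccl6, a chemokine of myeloid cells, from 10.6 to 19.2 CPM to 21.5 to 62.6 CPM (log2FC 1.63 ± 0.27, adjusted p = 0.00461). Tex14, needed for the bridges between germ cells, rose from 8.98, 10.4, 6.4, 7.08 and 3.79 CPM to 58.2, 31.5, 11.6, 24.1 and 26.4 CPM (log2FC 2.04 ± 0.36, adjusted p = 0.00851), Vnn1, a pantetheinase, from 56.8 to 112 CPM to 158 to 269 CPM (log2FC 1.42 ± 0.21, adjusted p = 0.00174), and Cst8, a cystatin, from 23.8 to 34.5 CPM to 47.4 to 116 CPM (log2FC 1.46 ± 0.22, adjusted p = 0.00179). The other gains were Lamtor3 (2.63), H2-D1 (above), Zfp949 (1.596), Serpini1 (1.53), Slc35a5 (1.505) and Dusp23 (1.46), and of these 12 only Zfp949 was lost on leaving out a library (ctrl 2 or 4 or FL1 1, 2 or 4, largest adjusted p 0.061).

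Among the 12 largest falls, Gdpd3 (chr7:126766334-126775649), an enzyme that makes lysophosphatidic acid, was read at 55, 44.7, 85.3, 94.4 and 5.68 CPM in ctrl and 1.32, 1.34, 0.524, 1.33 and 1.71 CPM in FL1 (log2FC -5.52 ± 0.62, adjusted p = 0.000186). Ctrl 5 lay between the other ctrl libraries and FL1. Wfdc10, of the whey acidic protein family, fell from 39.8 to 99.2 CPM to 0.888 to 3.89 CPM (log2FC -4.89 ± 0.31, adjusted p = 5.21e-07) and Slc39a8, a zinc and manganese importer, from 35.1 to 70.4 CPM to 3.38 to 16 CPM (log2FC -2.65 ± 0.33, adjusted p = 0.000548). Rbm46, an RNA-binding protein of germ cells, fell from 15 to 19.2 CPM to 2.1 to 4.59 CPM (log2FC -2.27 ± 0.22, adjusted p = 4.65e-05), with ranges far apart, and Ms4a4d from 14.2 to 23.5 CPM to 1.05 to 4.29 CPM (log2FC -2.80 ± 0.28, adjusted p = 7.35e-05). Gal3st2c, read at 7.61 to 53.4 CPM in ctrl and 0.598 to 1.47 CPM in FL1 (-4.62), and Ifi202b, an interferon-inducible gene read at 11.3 to 100 and 0.735 to 5.36 CPM (-3.99), varied widely within ctrl and were lower in every FL1 library. The other 5 were Rpl29, Rps2, Rpl26, Rpl35a and Snrpg, which have near-identical copies elsewhere in the genome. All 12 held in each fit that left out 1 library. Several genes named here overlap an annotated neighbour on the same strand (Tex14, Slc39a8, Zfp949 and Serpini1, and above Hsd17b2, Srd5a1, Cx3cr1, Fgf2, Hpgd and Klf9), so reads of such neighbours may be included. The strand setting of the counting is not given in the sources used here. For genes that overlap a neighbour on the other strand, which are not listed, its reads may be included as well.

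Genes with copies need their copies beside them, because a read that matches 2 places equally is not uniquely placed. Of the 311 called genes 46 had at least 1 copy, a gene elsewhere whose transcripts held part of their transcript end. With the counts of gene and copies added, 36 of these were still called, and in 6 the sign of the difference changed. Rps2 fell from 175 to 259 CPM to 8.6 to 14.7 CPM (log2FC -4.35 ± 0.17, adjusted p = 3.95e-09), and with its 62 copies the sum fell from 1198 to 3015 counts in ctrl to 422 to 633 counts in FL1 (log2FC -2.08 ± 0.11, adjusted p = 4.96e-08). The sums also fell for Rpl29 (-1.78 ± 0.17), Rpl35a (-1.73 ± 0.18) and Rpl26 (-3.28 ± 0.46). Those of Rpl26 overlapped between the lines, at 221 to 5050 counts in ctrl and 125 to 245 counts in FL1. Reads that match a gene and a copy equally are in none of these sums. Whether less RNA or a different placing of reads lies behind the falls was therefore not tested. In all, 5 of 75 tested ribosomal protein genes fell and 3 rose, while their median log2FC was 0.226.

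Rpl32 and Snrpg are shown with their pseudogenes because their sums with the pseudogenes gave different results. Rpl32 (chr6:115805505-115808747, minus strand, GRCm38) fell from 7341, 5461, 7326, 10757 and 4399 counts in ctrl 1 to 5 to 1973, 1699, 2034, 1897 and 2392 counts in FL1 1 to 5 (log2FC -1.84 ± 0.12, adjusted p = 5.21e-07). Its processed pseudogene Rpl32l (chr10:20208490-20208888, plus strand) had 2, 4, 0, 6 and 4 counts in ctrl and 164, 114, 148, 119 and 148 counts in FL1. The sum of Rpl32 and its copies still fell (log2FC -1.74 ± 0.12, adjusted p = 5.39e-07), since the gain of the pseudogene was small against the loss of the gene. The last 240 bases of Rpl32l and the matching stretch of the Rpl32 transcript (GENCODE M21) are the same in 232 positions, and the 8 differing bases are in capitals.
Rpl32: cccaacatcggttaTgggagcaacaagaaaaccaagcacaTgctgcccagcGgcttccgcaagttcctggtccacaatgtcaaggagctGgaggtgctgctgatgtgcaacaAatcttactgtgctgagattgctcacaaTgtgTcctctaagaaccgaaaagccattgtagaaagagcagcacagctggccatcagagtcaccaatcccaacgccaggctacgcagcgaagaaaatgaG
Rpl32l: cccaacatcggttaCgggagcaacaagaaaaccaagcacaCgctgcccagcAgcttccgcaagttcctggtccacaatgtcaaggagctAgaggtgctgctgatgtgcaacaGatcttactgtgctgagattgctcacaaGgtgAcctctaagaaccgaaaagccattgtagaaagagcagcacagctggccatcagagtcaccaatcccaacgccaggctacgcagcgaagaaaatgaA
Snrpg (chr6:86371304-86379328, plus strand), which encodes the G protein of the spliceosomal Sm ring, had 480, 244, 474, 585 and 432 counts in ctrl and 91, 141, 149, 87 and 142 counts in FL1 (log2FC -1.93 ± 0.18, adjusted p = 3.97e-05). The processed pseudogene Gm8186 (chr17:26098991-26099221, minus strand) had 20, 335, 70, 534 and 399 counts in ctrl and 761, 683, 834, 623 and 847 counts in FL1. Their sum did not pass the test (log2FC 0.21 ± 0.18, adjusted p = 0.621), so the fall of Snrpg cannot be told apart from a different placing of its reads. The last 120 bases of Gm8186 are identical to a stretch of the Snrpg transcript, so no base is in capitals.
Snrpg: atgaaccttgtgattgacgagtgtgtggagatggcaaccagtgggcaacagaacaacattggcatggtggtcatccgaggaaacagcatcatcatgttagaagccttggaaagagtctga
Gm8186: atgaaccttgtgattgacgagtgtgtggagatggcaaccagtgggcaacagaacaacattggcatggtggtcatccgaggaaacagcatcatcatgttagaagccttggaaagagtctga

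**Figure D4:**
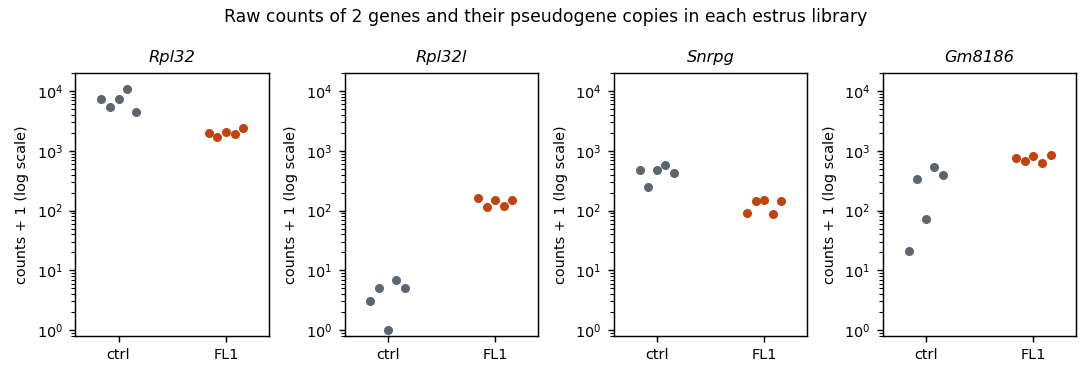
Raw counts plus 1 of Rpl32, Snrpg and their processed pseudogenes Rpl32l and Gm8186 in each estrus library, on a log axis shared by the panels, grey for ctrl and orange for FL1. Rpl32 falls while Rpl32l goes from at most 6 to at least 114 counts, and Snrpg falls while Gm8186 lies at 623 to 847 counts in FL1 against 20 to 534 in ctrl.

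Called genes were partly clustered along the chromosomes. A called gene had another called gene starting within 1 Mb in 135 of 311 cases (43.4%), against 32.5% of the tested genes that were not called. The run with the most called genes lay on chromosome 6 at chr6:71128166-72608425 (GRCm38), where 5 of 27 tested genes were called. Within it Thnsl2, a threonine synthase-like enzyme, fell from 10.7, 18.2, 9.93, 17.6 and 25.7 CPM in ctrl to 1.32, 1.94, 2.73, 2.96 and 2.68 CPM in FL1 (log2FC -2.81 ± 0.31, adjusted p = 0.000186), and St3gal5, which makes the ganglioside GM3, from 288, 169, 216, 280 and 146 CPM to 66.6, 62.8, 53.3, 56.7 and 58.5 CPM (log2FC -1.89 ± 0.17, adjusted p = 3.23e-05). Mat2a, the enzyme that makes S-adenosylmethionine, fell from 219 to 340 CPM to 78.5 to 147 CPM (log2FC -1.10 ± 0.16, adjusted p = 0.00188), and these 3 held in all 10 fits. Reep1, which shapes the endoplasmic reticulum, rose (log2FC 1.14 ± 0.23, adjusted p = 0.0201), and so did Retsat, a retinol saturase (log2FC 0.42 ± 0.10, adjusted p = 0.0412), where Reep1 was lost when ctrl 2 or FL1 5 was left out and Retsat when any library but ctrl 5 was left out (largest adjusted p 0.108).

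There were 3 runs of 4 called genes. On chromosome 17 (chr17:34969190-35474563), in the major histocompatibility complex, Hspa1a, an inducible chaperone, fell (log2FC -1.26 ± 0.26, adjusted p = 0.022), as did Prrc2a (log2FC -0.56 ± 0.12, adjusted p = 0.0228), beside H2-D1 and H2-Q10. On chromosome 4 (chr4:137468769-138460123) Alpl, tissue-nonspecific alkaline phosphatase (log2FC -1.14 ± 0.21, adjusted p = 0.0122), Camk2n1, an inhibitor of CaM kinase II (log2FC -1.06 ± 0.19, adjusted p = 0.0102), and Hspg2, perlecan (log2FC -0.69 ± 0.16, adjusted p = 0.0401), fell, and Cda, cytidine deaminase, rose (log2FC 1.15 ± 0.27, adjusted p = 0.0412). On chromosome 5 (chr5:72203329-73560794) Atp10d (log2FC -2.22 ± 0.25, adjusted p = 0.000224) and Dcun1d4 (log2FC -0.67 ± 0.16, adjusted p = 0.0386) fell, while Nipal1 (log2FC 1.30 ± 0.26, adjusted p = 0.0168) and Cnga1 (log2FC 1.95 ± 0.46, adjusted p = 0.0412) rose. Alpl, Camk2n1 and Atp10d held in all 10 fits. Hspa1a was lost without FL1 1, 2 or 4, Prrc2a without ctrl 1, 2 or 4 or FL1 1, 4 or 5, Hspg2 without ctrl 3 or 4 or FL1 1, 2 or 4 and Nipal1 without FL1 2. Cda was lost without ctrl 1, 2, 3 or 4 or FL1 2, 3, 4 or 5, Cnga1 without ctrl 1, 2, 3 or 5 or FL1 1, 2, 4 or 5 and Dcun1d4 without ctrl 1, 2 or 4 or FL1 1, 2, 3, 4 or 5, each left out in turn (largest adjusted p 0.0988, 0.109 and 0.0959).

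The diestrus libraries come from other mice of both lines and were set beside the estrus values. Of the 311 genes 292 were also tested in diestrus, where 545 of 13259 genes (4.11%) differed between the lines. The sign was the same for 259 of the 292 genes (88.7%), against 55.1% of the 12968 genes tested in both stages, and 93 of them were also called in diestrus, all in the same direction. Genes called in estrus with values near 0 in diestrus included Peg3 (-0.01 ± 0.21), Per2 (-0.06 ± 0.26), Igfbp2 (0.05 ± 0.18) and Lepr (0.02 ± 0.34), but for none of these was the difference between the stages significant (interaction adjusted p = 0.125, 0.18, 0.126 and 0.297).

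A line-by-stage interaction passed in 8 of 14154 genes (0.0565%), 3 of which were called in estrus. Tns4, a focal adhesion protein, was lower in FL1 in estrus, 2.79 ± 0.934 against 7.37 ± 1.77 CPM (SD, n = 5 each, log2FC -1.39 ± 0.30, adjusted p = 0.0254), and without a call in diestrus, 6.04 ± 2.57 against 2.46 ± 0.946 CPM (log2FC 1.29 ± 0.35). Echdc2, a mitochondrial enoyl-CoA hydratase-like protein, was higher in estrus, 118 ± 21.6 against 69.3 ± 13.7 CPM (log2FC 0.76 ± 0.15, adjusted p = 0.0191), and without a call in diestrus, 38.3 ± 5.82 against 49.8 ± 8.43 CPM (log2FC -0.39 ± 0.14). Gm15866, an antisense gene on chromosome 5, was at 3.82 ± 1.32 against 0.381 ± 0.115 CPM in estrus (log2FC 3.22 ± 0.41, adjusted p = 0.000556) and at 4.22 ± 1.97 against 3.58 ± 0.687 CPM in diestrus (log2FC 0.24 ± 0.32). Because the strand setting is not given, its reads cannot be told apart from those of the 2 genes on the other strand that it overlaps. The interaction terms were -2.68, 1.15 and 2.98 on the log2 scale (adjusted p = 0.0328, 0.0431 and 0.0328). No gene passed the interaction test when ctrl 3, FL1 4 or FL1 5 of estrus was left out. The same held for ctrl 4, FL1 3 or FL1 4 of diestrus, each left out in turn. The estrus call of Tns4 was lost when ctrl 1 or 2 or FL1 1, 2 or 3 was left out and that of Echdc2 when FL1 5 was left out (largest adjusted p 0.0654 and 0.06).

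**Figure D5:**
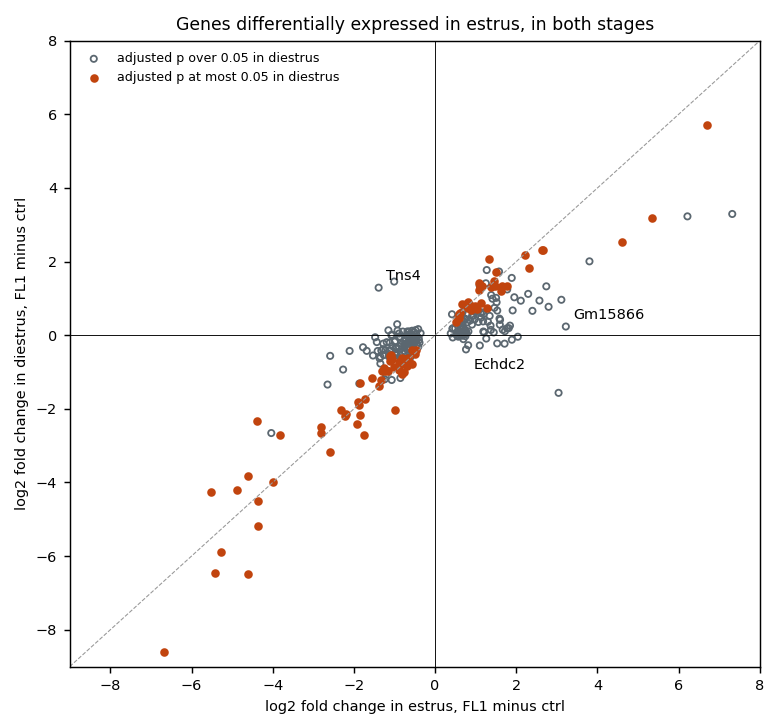
Log2 fold change (FL1 minus ctrl) in estrus against that in diestrus for the 292 genes called in estrus and tested in both stages. Filled orange points are the 93 genes that also passed in diestrus, open points did not, and the dashed line marks equal values. The 3 named genes are those with a line-by-stage interaction, and 259 of the 292 points have the same sign in both stages.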

How the data were processed

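Ovaries of ctrl and FL1 mice in estrus (n = 5 each) were profiled by QuantSeq 3' mRNA-Seq (forward). According to the methods and the submitters' processing notes, reads were trimmed, STAR was used for alignment to GRCm38, reads were assigned uniquely to Ensembl genes, and the authors ran DESeq2. The notes also name Cuffdiff. The counting tool and its strand setting are not given in the sources used here. The authors deposited 1 table of raw counts per library, with 54838 genes and no normalization or filter. Since reads were uniquely assigned, genes with near-identical copies may be undercounted.

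Groups were taken from the sample titles, with which the genotype labels go together. The source label names FL1 for every sample, ctrl included, and was not used. Symbols and positions came from GENCODE M21 (GRCm38), which holds 54809 of the genes. The lines were compared by edgeR 4.0.16's quasi-likelihood test (R 4.3.3, TMM normalization, filterByExpr with a minimum count of 10), with Benjamini-Hochberg adjustment over all tested genes and a threshold of 0.05. The SE of a log2FC was taken from the F statistic of the same test. CPM use TMM factors over all 20 libraries. Single values were compared by exact permutation over 252 splits. A gene elsewhere was called a copy where its transcripts held, at any position, 50 or more 31-nt words from the last 300 nt of the first gene's transcripts. Alternatives were DESeq2 1.42.0, limma-voom (limma 3.58.1), RLE normalization, other count filters, a block for the replicate number, leaving out each library and 1 joint fit. On simulated counts of the estrus libraries (13374 genes, 200 changed by 1.5 on the log2 scale), the test recovered 178 (89%) with 7 other calls.

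The labels do not say whether the mice of a line were littermates, so p-values measure the spread between these samples. Depth was 6087813 to 10187715 counts per library, and counting error is the lower limit of the error of low genes.

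The lists and the rule for named genes were chosen with earlier results of these data known. Named are the 12 largest called differences in each direction (protein coding, at least 10 CPM on average, no overlap between the lines), up to 8 called members of each list or else the member with the smallest p, the member with the highest level, genes of the same role, the genes of runs of at least 4 called genes, and called genes with an interaction. Not all genes named by this rule are given in the text. Left out are, among others, Flt1, Sod2, Bok, Dgat2 and Sox17, which had the smallest p of lists without a call, and some members with the highest level. Members that were called only without ctrl 5, and other list members given as values, were chosen after their values were seen, and not every list member is reported here.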

Additional observations from a re-analysis of the deposited data

Results flagged for a closer look

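In each line, named genes, list means and library measures were searched for a library that stood far from the other 4 of its line by Dixon's criterion. Of 220 sets of 5 libraries 20 had one, where chance gives about 1 in 20.

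The ctrl 5 library stood apart in 5 of the 6 list means found, with the endothelial list at a mean log2 CPM of 5.65 and the fat list at 6.04, the highest of ctrl, and apoptosis at 4.82, cell cycle at 4.95 and imprinted genes at 4.74, the lowest. It was also the highest ctrl library for H2-Q10 (46.3 CPM, the others 7.78 to 14.3), Mat2a (340 CPM, the others 219 to 252) and Cda (9.13 CPM, the others 3.75 to 5.13).

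Other high ctrl libraries were ctrl 1 for Rpl35a (72.8 CPM, the others 38.8 to 44.5) and for Lamtor3 (10.1 CPM, the others 1.83 to 3.1), ctrl 3 for Zfp949 (15 CPM, the others 3.49 to 6.42) and for Ren1 (107 CPM, the others 29.5 to 44.4), ctrl 2 for Hspa1a (61.2 CPM, the others 21 to 31) and ctrl 4 for Cnga1 (7.45 CPM, the others 1.32 to 3.08). The total of ctrl 4, 10187715 counts, was far above that of the other ctrl libraries.

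In FL1, library 1 was highest for Hsd17b2 (21.6 CPM, the others 11.1 to 13.6) and lowest for Peg3 (12.1 CPM, the others 16.9 to 18.4), library 2 was lowest for Rpl35a (3.89 CPM, the others 8.6 to 9.92), and library 4 was highest for Ifi44 (13.2 CPM, the others 6.29 to 7.92) and for the renin-angiotensin list (mean log2 CPM 4.41).

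The line-by-stage interaction passed for Tns4 (interaction log2FC -2.68), Echdc2 (1.15) and Gm15866 (2.98) with all libraries. On leaving out some single libraries no gene passed it.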

How the results depend on the processing

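Of the 311 calls in estrus, DESeq2 gave 670 (318 rose, 352 fell), a filter of at least 1 count in total 477 (225 rose), and 1 fit of all 20 libraries 531 (241 rose, 290 fell). RLE normalization gave 313 and limma-voom 289. A filter of at least 10 counts in every library gave 230. In diestrus DESeq2 gave 891 and the filter of at least 1 count 846, against 545. For the interaction the counts were 148 with DESeq2, 3 with limma-voom and 17 with the filter of at least 1 count, against 8. Leaving out 1 library at a time gave 175 (without FL1 2) to 418 (without ctrl 5) calls in estrus, 81 to 210 that rose and 93 to 208 that fell, 349 to 594 in diestrus and 0 to 15 for the interaction. The count of 0 came up on leaving out several single libraries, and with all libraries 1654 genes had an unadjusted interaction p under 0.05. The causes were not tested.

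Ctrl and FL1 libraries share replicate numbers. The deviations of same-numbered libraries had correlations of -0.109 to 0.137, and those of the other pairs -0.155 to 0.13. These few pairs cannot show whether the numbers stand for a shared batch, and the main test did not use the numbers. With the replicate number as a block, 230 genes were called in estrus, 498 in diestrus and 12 for the interaction.

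Over all alternatives, the named genes that were called kept direction and threshold in 994 of 1211 comparisons, lost the threshold in 217 and turned in 0. They kept it in 72 of 72 with DESeq2 and with RLE normalization, 71 with at least 1 count, 64 in 1 fit of all libraries, 62 with limma-voom and 57 with the block, in 57 of 59 with at least 10 counts in every library, and in 46 (without FL1 2) to 70 (without ctrl 5) on leaving out 1 library. Signs turned only for 8 named genes without a call. Sfrp4 was 0.12 with limma-voom, 0.10 with the block and -0.33 to 0.35 on leaving out libraries. On leaving out libraries Gdf9 ranged from -0.0532 to 0.495, Acta2 from -0.0552 to 0.0681, Tppp3 from -0.039 to 0.39, Timp1 from -0.393 to 0.166, Sparc from -0.193 to 0.0495, Mcl1 from -0.0152 to 0.0976, and B2m from -0.00765 to 0.145. Kl, Per2, Fetub and H2-Q10 rest on a few CPM in at least 1 line, so their fold changes carry counting error.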
